A study of Mus musculus with 15 samples.

Results

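Ribosome biogenesis and nucleolar genes were followed through an IL-3 time course in Ba/F3-beta cells, a mouse pro-B cell line that depends on interleukin-3. The members were 39 genes given as a list of names. That list was chosen with earlier results of these data known. Every probe set annotated to 1 of these genes alone was taken, whatever its values. The list reached 38 genes and 79 probe sets, of 15964 genes and 36701 non-control probe sets on the 3 designs of an older Affymetrix mouse array, called U74A, U74B and U74C. The remaining gene, Mrto4, was annotated only to a probe set shared with another gene and was not given a value.

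All cells carried siRNA. Control cells were transfected with the scramble I siRNA and were left unstimulated or were given IL-3 for 30 min or 2 h. The other cells were transfected with siRNAs against Stat5A and Stat5B, the transcription factors that the IL-3 receptor activates, and were given IL-3 for 30 min or 2 h. No unstimulated cells with Stat5 siRNA were analysed here, so a change before IL-3 was added cannot be separated from a change in the response to it. Each of the 5 conditions had 1 array per design, 15 arrays in all, and the series was meant to find genes that need Stat5 for their induction. No value below has a replicate check, and no p-value was computed.

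Ribosomes are built in the nucleolus, where RNA polymerase I transcribes the long precursor of the ribosomal RNAs. Small nucleolar RNPs of the box C/D and box H/ACA classes guide methylation and pseudouridylation of that precursor, and large sets of assembly factors then process it and fold it into the small and the large subunit. The pathway is known as a growth-linked programme in cytokine-driven blood cells, and many of its genes are known targets of MYC, which binds the E-box letters CACGTG.

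Signals were deposited as linear MAS5 intensities. A floor of 120 separated measured signals from low ones. It was the signal that 14553 probe sets reached on their highest array, the number that passed the filters named in the series' design text. Signals below it were raised to it before a ratio was taken, and where a value comes from such a signal the true difference can be larger, so that it is written "at least". Of the 79 member probe sets, 56 reached the floor on 1 array or more, which left 36 measured genes. The RNA polymerase I subunit gene Polr1a and the small subunit export factor gene Rrp12 were below the floor on all arrays and are given no ratio. A gene's value is the median log2 ratio over its measured probe sets, and probe sets whose suffix marks possible cross-hybridisation were used only where a gene had no other. Pairs of probe sets of 1 gene gave an SD of a single log2 ratio, over all genes, between 0.24 and 0.34 in the 6 comparisons. That spread covers the probes and not the cultures.

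Arrays of 1 design correlated between 0.940 and 0.987. The Stat5a probe sets, which can cross-hybridise, stood at 47.6% and 50.6% of the control siRNA signal at 30 min and at 38.1% and 53.6% at 2 h. Percentages here were taken from signals not raised to the floor, and the 38.1% used a Stat5 siRNA signal of 96.5, under it. The Stat5b probe set above the floor stood at 33.2% at 30 min and at 71.3% at 2 h, when the control signal had itself gone from 499 to 177. Of 15 pro-B marker genes, 13 were on the arrays and 5 reached the floor (Csf2rb, Csf2rb2, Il3ra, Ptprc and Cd79b), while Vpreb1, Igll1, Pax5, Ebf1, Cd79a, Rag1, Rag2 and Cd24a stayed under it. The summed signal of the list lay between 8248 and 12489 and was lowest with Stat5 siRNA at 30 min. Most of that sum came from the IL-3 receptor chain genes Csf2rb (5446 to 8661) and Csf2rb2 (1619 to 2689), so it does not measure B-lineage identity. Cd79b reached the floor in 3 of the 5 conditions. Markers of T and NK cells reached the floor for 0 of 6 genes, those of myeloid and mast cells for 1 of 14 (Ms4a2) and those of fibroblasts and epithelia for 3 of 9 (Col1a2, Epcam and Cdh1), with summed signals of 93 to 157, 456 to 632 and 1008 to 1105. The part of these differences in the results below was not tested.

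After 2 h of IL-3, 15 of the 36 measured members were 2-fold or more higher than in unstimulated control cells and 0 were 2-fold or more lower. Over all 8294 measured genes, 2.45% were higher and 1.63% lower by that size. The members' median log2 ratio was 0.73, against -0.03 over all measured genes, and 34 members lay above 0. The highest were Tsr1, Gnl3, Nop2, Rrs1 and Wdr43, all factors of subunit assembly. In bulk RNA, fewer cells of a kind and less RNA per cell cannot be told apart, and these signals are relative to the average of the array.

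At 30 min, before that increase, 0 of 33 measured members were 2-fold or more higher and 0 were lower, against 0.711% and 0.343% of all 8155 measured genes. With shares this low, 33 genes would usually hold none past 2-fold, so these counts do not set the members apart. The members' median was 0.03, 17 lay above 0 and 16 below. With signals raised to the floor, all lay between -0.44 and 0.65. The lowest was Bop1, a partner of Pes1 in large subunit assembly. The highest were Grwd1 (0.65), read at 30 min from cross-hybridising probe sets only, and Nop16 (at least 0.65), read from an unstimulated signal under the floor. The Nop16 signals were 93.9 unstimulated and 187 at 30 min, so its true ratio can be larger.

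**Figure D1:**
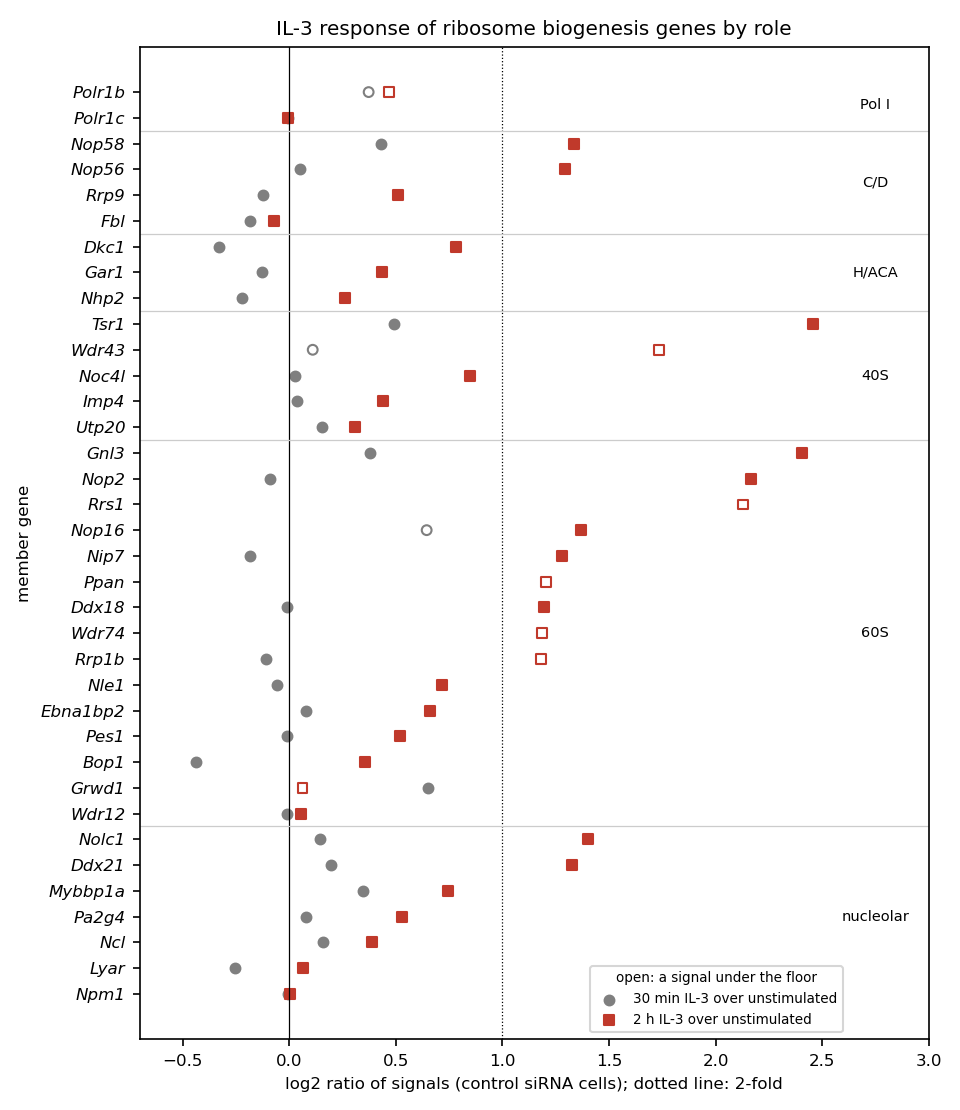
Log2 ratio of the signal with IL-3 over the unstimulated signal in control siRNA cells for each measured member gene, grouped by role; grey circles are 30 min, red squares are 2 h, open symbols rest on a signal under the floor, and the dotted line marks 2-fold. With signals raised to the floor, the 30 min values lie between -0.44 and 0.65. Of the 36 squares, 15 lie past the dotted line, 9 of them among the 15 large subunit factors.

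By role, the large subunit assembly factors held most of the members past 2-fold at 2 h, 9 of 15 with a median log2 ratio of 1.19. The box C/D proteins followed with 2 of 4 (median 0.90) and the small subunit factors with 2 of 5 (0.85). Among the general nucleolar proteins 2 of 7 passed (0.53), and among the box H/ACA proteins 0 of 3 (0.44). The RNA polymerase I subunits had 0 of 2 and a median of 0.23. These groups are small and the differences between them were not tested.

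The promoters of 4 of the members with the strongest response are shown here. Every promoter of a member past 2-fold at 2 h in which the E-box was found is among these 4, so they do not show its share. Each is 130 bases of the RefSeq promoter table of assembly GRCm38.p6, 100 before the annotated start and 30 from it, on the gene's strand and written 5′ to 3′, with CACGTG in capitals. Nop2 is at chr6:125131783-125131912 (plus strand), Tsr1 at chr11:74897980-74898109 (plus), Wdr43 at chr17:71616115-71616244 (plus) and Gnl3 at chr14:31019102-31019231 (minus).
Nop2: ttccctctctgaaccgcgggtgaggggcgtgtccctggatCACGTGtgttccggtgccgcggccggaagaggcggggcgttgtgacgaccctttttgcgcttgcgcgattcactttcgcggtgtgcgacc
Tsr1: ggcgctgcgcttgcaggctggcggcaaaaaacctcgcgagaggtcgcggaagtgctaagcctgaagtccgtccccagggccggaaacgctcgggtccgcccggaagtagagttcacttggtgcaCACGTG
Wdr43: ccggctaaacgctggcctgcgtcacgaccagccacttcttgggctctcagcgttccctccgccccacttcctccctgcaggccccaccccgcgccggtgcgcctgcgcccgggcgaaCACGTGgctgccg
Gnl3: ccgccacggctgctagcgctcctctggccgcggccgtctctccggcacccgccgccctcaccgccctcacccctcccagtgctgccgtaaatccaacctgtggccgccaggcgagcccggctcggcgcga
Counting the start as base 1, the E-box began at base -60 in Nop2, at base 25 in Tsr1 and at base 18 in Wdr43, and Gnl3 had none in its window.

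Over the whole 300-base windows of the table, CACGTG, which reads the same on both strands, was found in 9 of the 34 members with an entry (26.5%). It was found in 8.09% of all 27025 genes of the table and in 11.8% of the genes measured at 2 h. The other 6 members with the letters were Grwd1, Imp4, Mybbp1a, Nle1, Pes1 and Utp20, none of which was counted as past 2-fold at 2 h. Among members with an entry the letters were in 3 of 14 that were 2-fold or more higher (21.4%) and in 6 of 18 measured and not counted so (33.3%). Over all genes 2-fold or more higher at 2 h, they were in 32 of 167 with an entry (19.2%), close to the members' share. The core letters of a STAT5 site, TTCNNNGAA, also the same on both strands, were in 3 of 34 members (8.82%; Noc4l, Nop58 and Polr1b) and in 9.55% of all genes. Among genes measured at 2 h, they were in 3 of 32 members (9.38%) and in 8.13% of all genes. No table entry matched Bop1, Npm1, Fbl, Rrs1 or Rrp12.

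Of the RNA polymerase I subunits, Polr1c, which the enzyme shares with RNA polymerase III, kept nearly the same signal through the IL-3 course. It measured 379 unstimulated, 378 at 30 min and 378 at 2 h in control cells, and 451 at 30 min and 399 at 2 h with Stat5 siRNA. The highest of these was the array of Stat5 siRNA cells at 30 min. Polr1b, the second-largest subunit, had a log2 ratio of at least 0.47 at 2 h, read from a probe set that can cross-hybridise and from an unstimulated signal under the floor.

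The box C/D proteins divided. Nop56, a core scaffold of these RNPs, measured 537 unstimulated, 556 at 30 min and 1319 at 2 h in control cells, and 542 and 1017 with Stat5 siRNA. Both 2 h arrays were high and the 3 others lay close together, and the 2 h ratio was 2.45-fold (log2 1.30). Its paralogue and partner Nop58, read only from a probe set that can cross-hybridise, measured 250, 337 and 632 in control cells and 303 and 751 with Stat5 siRNA, a 2 h ratio of 2.52-fold (log2 1.34). Fibrillarin (Fbl), the methyltransferase of the same particles, did not move with them. It measured 1136, 1000 and 1080 in control cells and 958 and 1079 with Stat5 siRNA, a log2 ratio of -0.07 at 2 h. Rrp9, which binds the U3 small nucleolar RNA, had a log2 ratio of 0.51.

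All box H/ACA proteins lay above 0 at 2 h and below 0 at 30 min, none past 2-fold. Dyskerin (Dkc1), the pseudouridine synthase, measured 324 unstimulated, 258 at 30 min and 557 at 2 h in control cells, and 308 and 683 with Stat5 siRNA. Its 2 h signals were the highest in both arms, and because the 30 min signal was low, the ratio of 2 h to 30 min passed 2-fold (log2 1.11) while that of 2 h to unstimulated did not (0.78). Gar1 and Nhp2, the small proteins of the same particle, had log2 ratios of 0.44 and 0.26 at 2 h.

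Among the small subunit factors Tsr1, a GTPase-like maturation factor, had the highest ratio of all members. It measured 175 unstimulated, 247 at 30 min and 965 at 2 h in control cells, and 354 and 1129 with Stat5 siRNA. The 2 h arrays were far above the others in both arms, and the 2 h ratio was 5.50-fold (log2 2.46). The 30 min ratio of 0.49 was also among the highest of the members.

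Wdr43, a subunit of the early processing complex on the precursor, gave different answers by probe set. The first U74A probe set measured 155, 168 and 517 in control cells and 192 and 490 with Stat5 siRNA, a 2 h ratio of 3.33-fold (log2 1.74). The second measured 94, 133 and 525 in control cells and 160 and 786 with Stat5 siRNA, a ratio of at least 4.38-fold. The U74C probe set measured 138, 76.7 and 125 in control cells and 67.9 and 62.2 with Stat5 siRNA, no higher at 2 h than unstimulated in control cells and no higher at 2 h than at 30 min with Stat5 siRNA. The gene's value is the median, that of the first U74A probe set. With only probe sets whose signals both reached the floor, it was 0.80 and no longer past 2-fold.

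The other small subunit factors were higher by less than 2-fold at 2 h. Noc4l, which acts in small subunit assembly and export, had a log2 ratio of 0.85, Imp4, a U3 particle protein, 0.44, and Utp20, a large processome scaffold, 0.31.

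The large subunit factors held the rest of the strongest responses. Gnl3 (nucleostemin), a nucleolar GTPase of dividing cells, measured 130 unstimulated, 169 at 30 min and 687 at 2 h in control cells, and 221 and 795 with Stat5 siRNA. Nop2, the RNA methyltransferase also known as a proliferation antigen, measured 130, 122 and 586 in control cells and 196 and 557 with Stat5 siRNA. Both genes were near the floor without IL-3 and high on both 2 h arrays, with ratios of 5.29-fold (log2 2.40) and 4.50-fold (log2 2.17). Rrs1, which brings the 5S RNA particle into the large subunit, was under the floor without IL-3. It measured 112, 119 and 524 in control cells and 154 and 458 with Stat5 siRNA, a ratio of at least 4.37-fold.

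Nip7, a late RNA-binding assembly factor, measured 216, 190 and 523 in control cells and 284 and 437 with Stat5 siRNA. Its control signals were flat until 30 min and high at 2 h, a ratio of 2.42-fold (log2 1.28). The helicase Ddx18 had 2 probe sets that moved alike. The brighter measured 228, 244 and 490 in control cells and 304 and 613 with Stat5 siRNA, and the gene's 2 h ratio was 2.29-fold (log2 1.19). With the floor doubled that value was 0.76.

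Ppan (peter pan), a factor of large subunit maturation, was low without IL-3. It measured 56.7, 63.4 and 276 in control cells and 74.1 and 198 with Stat5 siRNA, a ratio of at least 2.31-fold. Wdr74, a partner of the assembly ATPase Nvl, measured 114, 107 and 273 in control cells and 156 and 211 with Stat5 siRNA, a ratio of at least 2.28-fold. Only the 2 h arrays of Ppan, and all arrays of Wdr74 but the unstimulated and 30 min control ones, reached the floor, and with the floor doubled both ratios were under 2-fold (log2 0.20 and 0.19).

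Rrp1b, a nucleolar protein linked to RNA processing, was read on all 3 designs. The U74A probe set measured 92.3, 107 and 439 in control cells and 99.9 and 440 with Stat5 siRNA, a ratio of at least 3.66-fold. The U74B probe set measured 129, 143 and 294 in control cells and 143 and 353 with Stat5 siRNA, 2.27-fold higher at 2 h. The U74C probe set measured 332, 258 and 546 in control cells and 265 and 704 with Stat5 siRNA, 1.65-fold higher. On every design the 2 h arrays were the highest in both arms. The gene's value (log2 1.18) was 0.95 with only probe sets whose signals both reached the floor and 0.72 from its brightest probe set or with the floor doubled.

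Nop16, a late nucleolar assembly factor, was the least certain of the 15. Its U74A probe sets, which can cross-hybridise, measured 481, 471 and 1180 in control cells and 565 and 1339 with Stat5 siRNA for the brighter, and 140, 126 and 381 with 160 and 416 for the dimmer. Both gave the value at 2 h, 2.58-fold (log2 1.37). The U74C probe set moved otherwise. It measured 93.9, 187 and 104 in control cells and 202 and 128 with Stat5 siRNA, highest at 30 min in both arms, and it gave the gene's values at 30 min and between 30 min and 2 h. At 2 h it entered with the floor halved, and the value was then 0.15. With the floor doubled the value was 0.98.

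Of the remaining large subunit factors, all but Grwd1 were measured on both arrays and lay below 2-fold at 2 h. Nle1, a ligand of the assembly ATPase Mdn1, had a log2 ratio of 0.72, Ebna1bp2 0.66, Pes1 0.52 and its partner Bop1 0.36. Wdr12, the third protein of the complex with Pes1 and Bop1, had 0.06. The Pes1 value joined a bright U74C probe set, which measured 5100, 4971 and 8690 in control cells and 5302 and 9056 with Stat5 siRNA, to a dim U74A one that measured 143, 145 and 172 with 140 and 185. Both were highest at 2 h, with log2 ratios of 0.77 and 0.27. Grwd1, a WD-repeat protein of the nucleolus, reached the floor on 1 array of its U74A probe set, at 125 with IL-3 for 2 h against 31.0 unstimulated, a ratio of at least 1.04-fold, which does not place it below 2-fold.

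**Figure D2:**
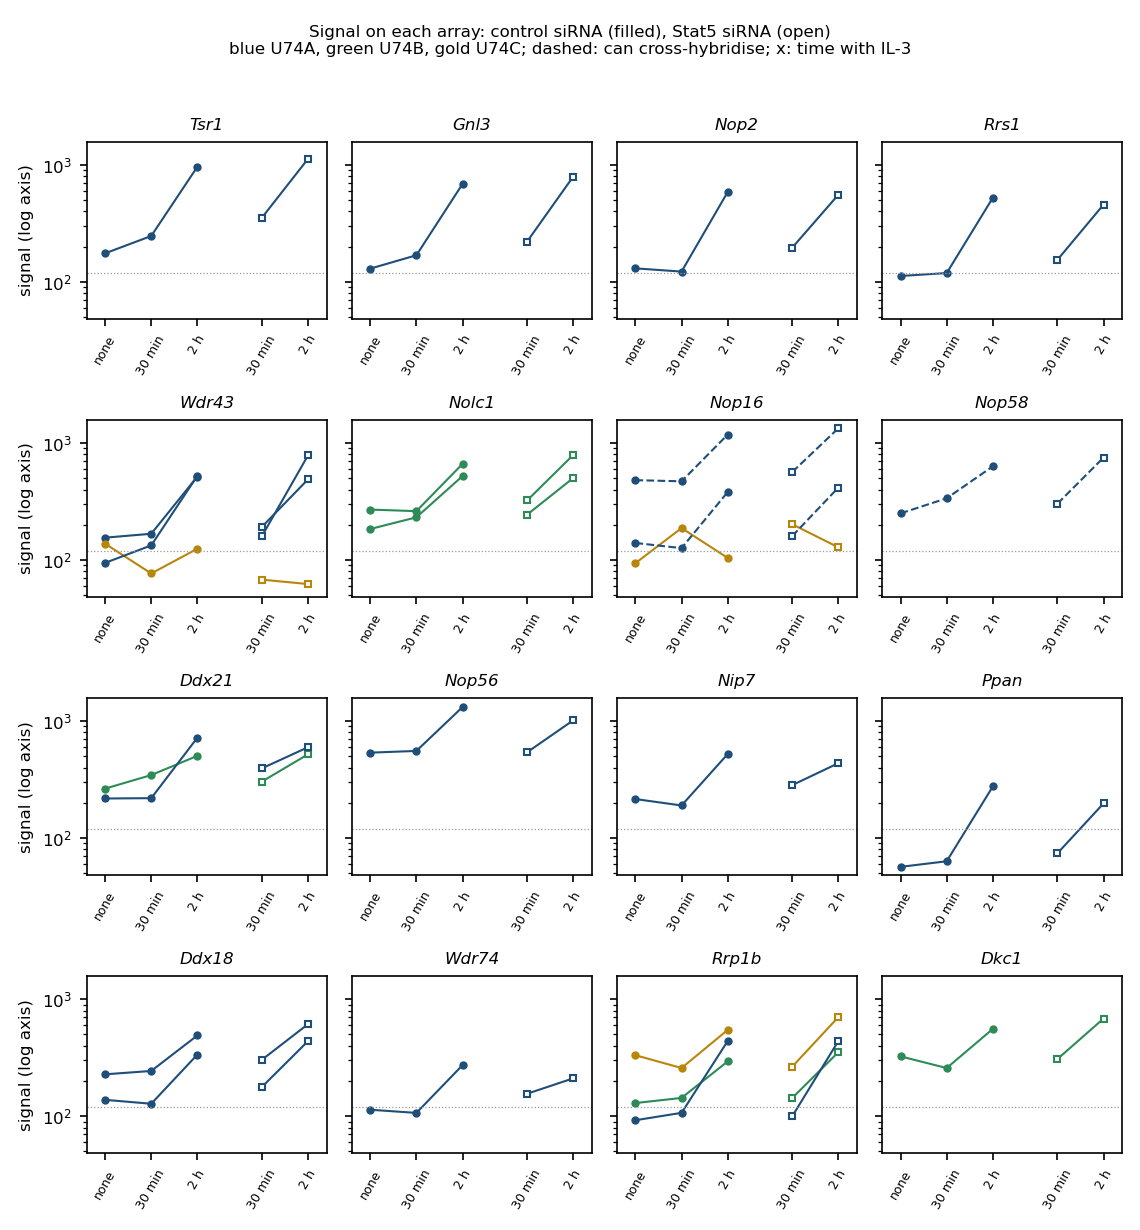
Signal on each array (log axis) for the 16 members past 2-fold in any comparison, by time with IL-3; filled circles are control siRNA, open squares Stat5 siRNA, blue, green and gold are U74A, U74B and U74C, dashed lines are probe sets that can cross-hybridise and the dotted line is the floor of 120. The 2 h points are the highest of each arm in all panels except in the U74C probe sets of Wdr43 and Nop16, and each point is a single array.

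Among the general nucleolar proteins, Nolc1, a chaperone of small nucleolar RNPs, and the helicase Ddx21 passed 2-fold at 2 h. The brighter Nolc1 probe set measured 270 unstimulated, 261 at 30 min and 663 at 2 h in control cells, and 323 and 791 with Stat5 siRNA. A dimmer one measured 184, 232 and 522 in control cells and 244 and 502 with Stat5 siRNA. Both showed high 2 h arrays in either arm, and the gene's ratio was 2.64-fold (log2 1.40). For Ddx21 the U74A probe set measured 218, 219 and 722 in control cells and 395 and 599 with Stat5 siRNA, and the U74B one 265, 346 and 505 with 304 and 521. Both were highest at 2 h in each arm, with log2 ratios of 1.73 and 0.93 and a gene value of 1.33.

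Nucleophosmin (Npm1), a nucleolar chaperone, had no such increase. It measured 4699, 4678 and 4707 in control cells and 4362 and 4293 with Stat5 siRNA, a log2 ratio of 0.00 at 2 h. Nucleolin (Ncl), another major nucleolar protein, had probe sets that disagreed. The U74A one measured 2863, 2351 and 2372 in control cells and 2303 and 2734 with Stat5 siRNA, a log2 ratio of -0.27 at 2 h, and a U74C one measured 192, 293 and 399 with 314 and 465, a ratio of 1.05. The gene value of 0.39 lies between them and describes neither. Of the others, Mybbp1a, a nucleolar transcription regulator read from a probe set that can cross-hybridise, had 0.75, Pa2g4, an ErbB3-binding growth regulator, 0.53, and Lyar, a nucleolar zinc finger protein, 0.06.

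Probe sets of 1 member gene often gave different ratios at 2 h. Over 16 pairs of member probe sets, the SD of a single log2 ratio was 0.62 and 25% of pairs were 2-fold apart, beside 0.34 and 4.83% over 2734 pairs of all genes. From 30 min to 2 h with control siRNA the member pairs gave an SD of 0.52 and 18.75% of pairs 2-fold apart, beside 0.31 and 3.58% over all genes. With Stat5 siRNA the SD of that change was 0.29 for member pairs, beside 0.30 over all genes. Most of the response was read on U74A, where 17 of 34 member probe sets were 2-fold or more higher at 2 h, against 3 of 11 on U74B and 1 of 9 on U74C. Over all measured probe sets the shares were 2.55%, 2.24% and 2.72%. The members' medians on the 3 designs were 0.98, 0.72 and 0.74. Of the 15 genes past 2-fold, 5 used an unstimulated signal under the floor and for 2 every probe set used can cross-hybridise. With only probe sets whose signals both reached the floor, 10 of 32 members passed, beside 2.25% of all genes, and the members' median was 0.70.

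The change from 30 min to 2 h was measured in both arms on arrays that share no sample, which allows the arms to be set side by side. In control cells 14 of 36 members were 2-fold or more higher at 2 h than at 30 min and 0 lower, with a median log2 ratio of 0.70, against 1.89% and 1.65% of all 8234 measured genes. With Stat5 siRNA 10 of 36 were higher and 0 lower, with a median of 0.57, against 1.64% and 1.19% of 8247 genes. The median over all genes was -0.02 in each arm. With median scaling 13 of 36 members passed in each arm, beside 1.76% and 1.98% of all genes. The members' medians were then 0.63 with control and 0.68 with Stat5 siRNA, so the order of the arms depended on the scaling. Counted as probe sets in place of genes, 17 of 54 member probe sets were 2-fold or more higher with Stat5 siRNA and 21 of 55 with control siRNA, beside 1.67% and 1.97% of all measured probe sets.

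The members past 2-fold in both arms were 9, namely Gnl3, Wdr43, Tsr1, Rrs1, Nop2, Rrp1b, Nolc1, Ddx18 and Dkc1. The same overlap was not counted over all genes, so whether the members differ from other genes in it was not tested. Gnl3 had log2 ratios of 2.02 with control and 1.85 with Stat5 siRNA, and Nop2 2.26 and 1.51. Nop58 passed with Stat5 siRNA alone (0.91 and 1.31). Ddx21, Nop56, Nip7 and Wdr74 passed with control siRNA alone and had values with Stat5 siRNA of 0.69, 0.91, 0.62 and 0.44. Ppan passed with control siRNA, and with Stat5 siRNA its value was at least 0.72, since the 30 min signal was under the floor, so it is not known to lie below 2-fold there. Passing in 1 arm and not in the other does not show that the arms differ, and with 1 array per condition the difference could not be tested.

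Across the 36 members the changes of both arms had a Pearson r of 0.877 and a Spearman rho of 0.859, and across 7924 genes 0.614 and 0.529. These are descriptions across genes, which share their arrays and are not independent replicates. The members' changes had SDs of 0.68 with control and 0.60 with Stat5 siRNA, against 0.44 and 0.41 over all measured genes. A wider spread by itself raises a correlation, so the higher values do not show closer arms for the members. Both changes were above 0 in 32 of 36 members. Over all genes 47.6% were above 0 with control siRNA and 47.2% with Stat5 siRNA, and those above 0 in both arms were not counted. The change with Stat5 siRNA was smaller than with control siRNA in 23 members and larger in 13, with differences from -0.84 (Nip7) to 0.46 (Pa2g4) and a median of -0.06, against 0.01 over all genes. These counts were not remade with median scaling, under which the members' median was higher with Stat5 siRNA (0.68) than with control siRNA (0.63). Differences that use a signal under the floor, as for Ppan and Rrs1, have no fixed size.

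**Figure D3:**
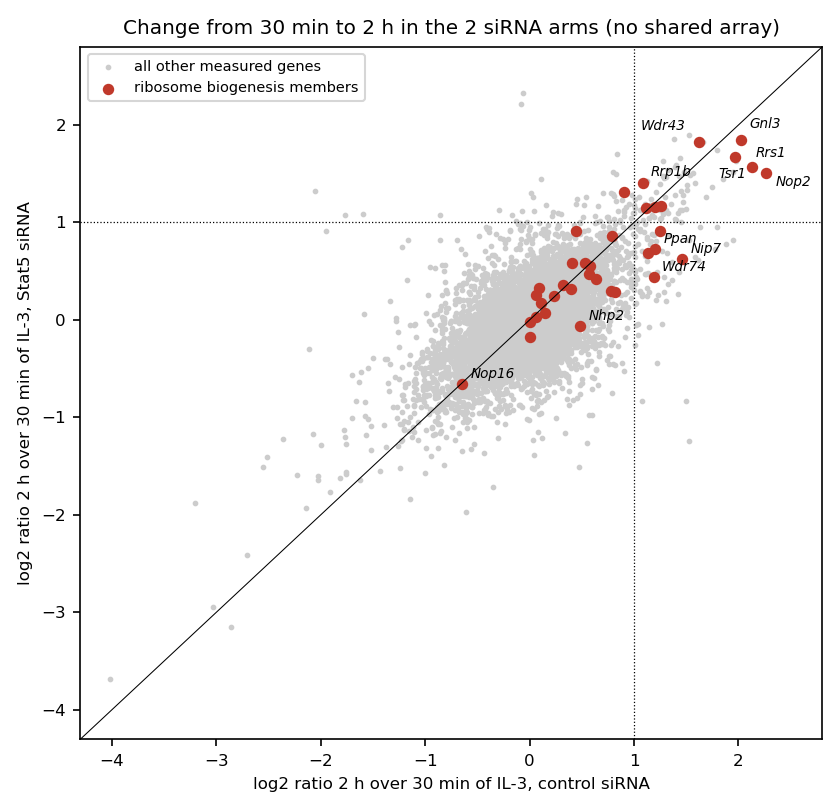
Log2 ratio of 2 h over 30 min of IL-3 in control siRNA cells (x axis) and Stat5 siRNA cells (y axis) for each of 7924 genes, with the 36 members in red and the others in grey; dotted lines mark 2-fold and the diagonal marks equal change. Of the members, 9 lie past 2-fold on both axes, and the lowest, Nop16, was read on these axes from its U74C probe set.

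Set directly against control siRNA, no member reached a 2-fold difference with Stat5 siRNA at either time. At 30 min 0 of 35 members were 2-fold or more higher and 0 lower, against 0.308% and 0.382% of 8124 genes. At 2 h 0 of 36 were higher and 0 lower, against 0.504% and 0.43% of 8132 genes. At such shares a list of this size would usually hold none, so these counts do not set the members apart from other genes. Among the 15 members that were 2-fold or more higher with IL-3 at 2 h, the siRNA ratio at 2 h lay between -0.48 (Ppan) and 0.35 (Ddx18), with 7 of 15 above 0. The arrays of control cells at 2 h enter the IL-3 ratio and the siRNA ratio alike, so those values are not independent of the choice of these 15. Over all members the 2 h median was -0.00, with 17 above 0 and 19 below, and the median over all genes was 0.00.

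At 30 min more members were above the control than below it. The median log2 ratio was 0.19 with Stat5 siRNA over control, 27 of 35 members lay above 0, and over all genes the median was 0.00 with 50.1% above 0. With only probe sets whose signals both reached the floor, 25 of 32 lay above 0. The signal of Nop2 was 196 with Stat5 siRNA and 122 with control (log2 0.68), that of Nip7 284 and 190 (0.58), and that of Tsr1 354 and 247 (0.52). These were the largest ratios of the 35 members. The SD of 0.24 for a single ratio between probe sets of 1 gene covers the probes and not the cultures. It therefore does not measure how far single arrays differ. Nle1 (0.41), Ddx18 (0.40), Gnl3 (0.39), Wdr74 (at least 0.38) and Rrs1 (at least 0.36) followed, all but Tsr1 large subunit factors, of which 13 of 14 lay above 0. On the other side stood Polr1b (-0.37, at least that far below, as its signal with Stat5 siRNA was under the floor), Utp20 (-0.26), Grwd1 (-0.22) and Nop58 (-0.15).

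By 2 h the order had changed. Nop2 had 586 with control and 557 with Stat5 siRNA (-0.07), Nip7 523 and 437 (-0.26) and Wdr74 273 and 211 (-0.37). The lowest were Ppan (-0.48), Nhp2 (-0.44) and Nop56 (-0.38), and the highest Pa2g4 (0.41), Ddx18 (0.35) and Dkc1 (0.29). Nhp2 measured 1444 unstimulated, 1238 at 30 min and 1733 at 2 h in control cells, and 1337 and 1281 with Stat5 siRNA. Its 2 h array was high in the control arm and not in the other. Pa2g4 measured 152, 161 and 219 in control cells and 155 and 292 with Stat5 siRNA, higher in the latter at 2 h.

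**Figure D4:**
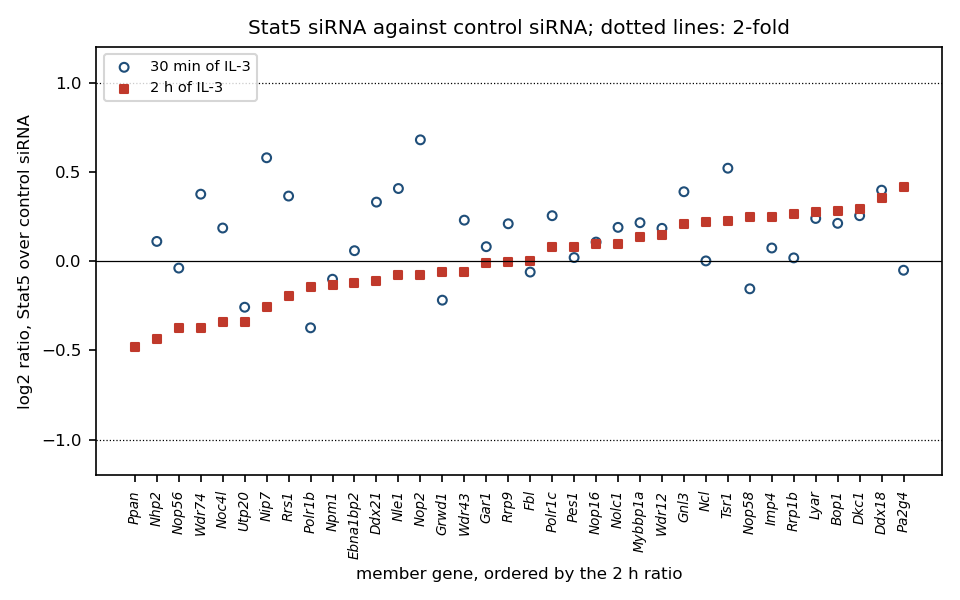
Log2 ratio of the signal with Stat5 siRNA over that with control siRNA for each measured member, ordered by the 2 h value; open circles are 30 min of IL-3, filled squares are 2 h and dotted lines mark 2-fold. No point reaches a dotted line, the 30 min points lie above 0 for 27 of 35 members, and the 2 h points lie on either side of 0.

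A list of 128 other ribosome biogenesis genes, of which 120 were on the arrays, was read in the same way. At 30 min of IL-3, 0 of 92 measured genes were 2-fold or more higher or lower, beside 0.711% and 0.343% of all genes, with a median of -0.02. At 2 h 15 of 105 were higher and 0 lower, with a median of 0.39, again beside 2.45% and 1.63% of all genes. The share past 2-fold was lower than that of the members, 14.3% against 41.7%, and the difference was not tested, since the lists were chosen with earlier results known. Of 103 genes of this list with a promoter entry, 19 held CACGTG (18.4%) and 13 held TTCNNNGAA (12.6%).

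With signals raised to the floor, the 4 highest of them at 2 h were Gtpbp4, a GTPase of large subunit assembly (log2 1.58), Rrp15 (1.43), Utp4 of the small subunit processome (1.41) and Nifk, a nucleolar partner of Ki-67 (1.39). Bysl, of the small subunit, followed with at least 1.39, and since its unstimulated signal of 86.9 was under the floor (314 at 2 h), its place in this order is open upward. Gtpbp4 measured 530, 617 and 1582 in control cells and 699 and 1596 with Stat5 siRNA, high at 2 h in both arms. From 30 min to 2 h, 17 of 105 were 2-fold or more higher with control and 16 of 105 with Stat5 siRNA, with medians of 0.41 and 0.39. With Stat5 over control siRNA 0 of 96 passed 2-fold in either direction at 30 min (median 0.10, 69 above 0) and 0 of 106 at 2 h (median 0.04). Over all genes 0.308% were higher and 0.382% lower at 30 min, and 0.504% and 0.43% at 2 h.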

How the data were processed

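The values are linear probe set intensities, deposited by the authors in 1 table per array design and computed with MAS5 per the series' design text. The version of MAS5 was not given in the sources used here. The deposited arrays, 15 in all, had trimmed means from 150.04 to 150.1 when 2% of the values were dropped from either tail. Detection calls and probe-level files were not used here.

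Arrays were set to the same trimmed mean. A probe set was measured in a comparison if 1 of its 2 signals reached the floor of 120, and lower signals were raised to it. Ratios were taken on the log2 scale within a design. A difference of 2-fold or more (log2 of 1) is a selection by size. With 1 array per condition, the number of arrays limits the precision, and no label names separate cultures. Symbols came from the platform annotation, which gave 1 symbol for 29131 probe sets, several for 724 and none for 6846. The RefSeq gene table of GRCm38.p6 changed 0 symbols. Promoter windows of 300 bases (250 before the start and 50 from it) came from RefSeq's table of that assembly.

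Signals on every array are given for members past 2-fold in any comparison, ratios or ranges for the others, and the 4 largest ratios for the list of other genes. Fbl, Npm1, Ncl, Pes1, Polr1c, Nhp2, Pa2g4 and Grwd1 were given signals after their values were seen. The members, role groups and lists were chosen with earlier results of these data known. The alternatives were another scaling (median, quantile), other floors, no raising, other choices of probe set, designs left out, and 2 added after seeing the data. The steps were tested on simulated data with Python 3.11.15, pandas 2.3.3 and numpy 2.4.6.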

Additional observations from a re-analysis of the deposited data

Results flagged for a closer look

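For 17 member values the sign differed between the groups compared. Sign differences were not counted over all genes, where 50.1% of siRNA ratios at 30 min and 50.5% at 2 h lay above 0. The member counts therefore do not set the members apart from other genes. Each group is 1 array per condition, the differences were not tested, and no explanation was tested either. Both views below are built from the same IL-3 arrays. For a gene read from 1 probe set measured in all 4 ratios, the difference between the arms in the change from 30 min to 2 h equals the siRNA ratio at 2 h minus that at 30 min, while a gene with several probe sets can differ, since each value is a median.

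In the change from 30 min to 2 h, Nhp2 was higher at 2 h with control siRNA (log2 0.49) and slightly lower with Stat5 siRNA (-0.06), a difference of -0.55. Polr1c and Npm1 also had opposite signs, with differences of -0.18 and -0.032, both smaller than the probe set spread.

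In the ratio of Stat5 over control siRNA, 12 members were above 0 at 30 min and below 0 at 2 h. The 2 h value minus the 30 min value was -0.84 for Nip7, -0.75 for Nop2, -0.75 for Wdr74, -0.56 for Rrs1, -0.55 for Nhp2, -0.53 for Noc4l, -0.48 for Nle1 and -0.44 for Ddx21. It was -0.29 for Wdr43, -0.21 for Rrp9, -0.18 for Ebna1bp2 and -0.092 for Gar1. The opposite order, below 0 at 30 min and above 0 at 2 h, held for Pa2g4 (0.46) and Nop58 (0.40). The values of Rrs1, Wdr74 and Wdr43 use a signal under the floor. The SD of a single ratio between probe sets of 1 gene was 0.24 at 30 min and 0.27 at 2 h. For Ddx21 the probe sets disagreed at 30 min, at 0.85 on U74A and -0.18 on U74B. For Wdr43 they disagreed at 2 h, at -0.08 and 0.58 on U74A and -0.06 on U74C. The U74C value, from a Stat5 siRNA signal under the floor, gave the gene's sign. The gene's change from 30 min to 2 h was larger with Stat5 siRNA, by 0.20, so the direction for Wdr43 is not settled.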

How the results depend on the processing

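The members' medians are given by their range over 13 alternatives. The median lay between 0.59 and 0.76 for IL-3 at 2 h, between 0.63 and 0.80 from 30 min to 2 h with control siRNA and between 0.45 and 0.68 with Stat5 siRNA. For the siRNA ratio at 30 min it lay between 0.10 (probe sets in place of genes) and 0.20, and between -0.01 and 0.09 at 2 h. Of 156 recounts of members past 2-fold, 155 were within 1.5 times the count given. The other was 17 member probe sets in place of 10 genes from 30 min to 2 h with Stat5 siRNA, an alternative chosen after seeing the data. Most of the 156 recounts set 0 against 0, so their agreement says little about the counts that were not 0. At 2 h of IL-3 the count of 15 ran from 10 (floor doubled, or both signals at the floor) to 21 (probe sets). From 30 min to 2 h the count of 14 with control siRNA ran from 10 to 21. The count of 10 with Stat5 siRNA ran from 8 to 17. Of 454 recomputed single-gene values past 2-fold, 437 stayed past it and 0 changed sign. No paired analysis was possible because each condition had 1 array per design. Signals near the floor limit Rrs1, Ppan, Wdr74 and Grwd1 to lower bounds.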
